A study of Mus musculus with 6 samples.

Results

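The genes described here were the 10 genes *Yap1*, *Wwtr1*, *Tead1*, *Tead2*, *Tead3*, *Tead4*, *Ctgf*, *Cyr61*, *Ankrd1* and *Amotl2*, which make up the end point of the Hippo signaling pathway. They were chosen by name, as the 2 coactivators, the 4 Tead transcription factors and 4 genes known as their targets. No rule on measured values was used, but earlier results of these data were known when they were chosen. *Ctgf* and *Cyr61* are the names used by the array design for the genes now called *Ccn2* and *Ccn1*. The array carried 13 probes for these 10 genes, among probes for 34741 genes in all. Of the 10 genes, 9 were read well enough to be tested, among 18545 genes tested.

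The arrays compare 3 normal livers with 3 liver tumors of male C3H/HeN mice, a strain whose males are prone to spontaneous liver tumors. All mice were 74 to 75 weeks old and came from the F2 generation of an untreated control group kept on a standard diet and tap water, so that no agent distinguishes the groups. Per the methods of the study the 3 tumors carried a Ha-*ras* mutation, and the normal livers are the only comparison group. Each sample was hybridized to a one-color Agilent SurePrint G3 Mouse GE array. The samples were pieces of whole tissue, in which fewer cells of a type and less RNA per cell cannot be told apart, and the labels do not say whether each came from a separate mouse. The p-values therefore measure the spread among these samples.

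In the Hippo pathway a chain of kinases phosphorylates the coactivators Yap and Taz, the products of *Yap1* and *Wwtr1*, and holds them in the cytoplasm. When the kinases are inactive, Yap and Taz enter the nucleus and bind Tead factors, which contact DNA and switch on genes for growth, matrix and cell shape. In the liver the pathway is known for limiting organ size, and forced Yap activity in mouse hepatocytes causes overgrowth and tumors. Much of this control acts on the proteins by phosphorylation, which an array does not measure.

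An expression value here is the background-subtracted signal of a probe divided by the 75th percentile of its array, the normalization that the study itself used. Differences are given as log2 of liver tumor over normal liver from a limma fit over all probes, with the standard error (SE), and a gene was called when its Benjamini-Hochberg adjusted p was below 0.05. Where a gene had several probes, the brightest one stood for it. Since probes differ in how strongly they bind, values are compared between samples and not between genes. Between 44.7% and 48.88% of the spots on an array were well above background and 0 were saturated. The arrays of normal livers lay on one slide and those of tumors on another, with a median local background of 42 to 45 and 22 to 23, and an effect of the slide cannot be told apart from one of the tissue. The hepatocyte marker albumin, *Alb*, read 2273 ± 303 in normal livers and 2169 ± 49.4 in tumors (SD, n = 3). Of 8 hepatocyte markers 1 was called, against 34.1% of all genes tested. This was *Apoa1*, which was higher in tumors by 0.90 on the log2 scale (limma adjusted p = 0.00565). A dimmer probe of *Apob* was also called higher (0.55, limma adjusted p = 0.0455), where its brightest probe had -0.11 and was not called. With quantile normalization 2 of the 8 markers were called, both higher.

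Of the 9 genes tested, 5 were called, 4 higher and 1 lower in the tumors. The coactivator gene *Wwtr1*, the factor genes *Tead2* and *Tead4* and the target gene *Ctgf* were higher, and the target gene *Amotl2* was lower. Among all genes tested 34.1% were called, 13.1% higher and 21.0% lower. The groups did not overlap for 6 of the 9 genes, against 51.8% of all genes. The median log2 fold change of the 9 genes was 0.40, also with *Tead4* at its lower bound, and that of all genes tested was -0.13. *Ctgf* was called in 16 of 16 other limma settings and *Tead4* in 14 of 15, while *Amotl2* was called in 11, *Wwtr1* in 10 and *Tead2* in 7 of 16. *Tead4* entered the test only through the tumors, the group where it was high, so its direction was built into its being tested.

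**Figure D1:**
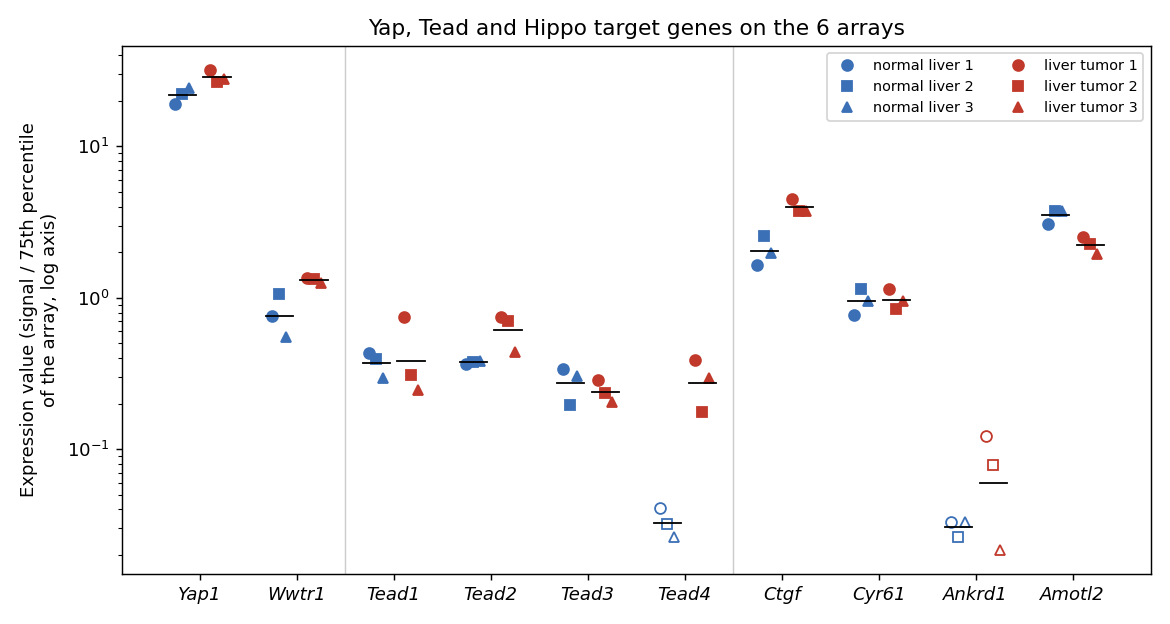
Expression value on a log axis (signal over the 75th percentile of the array) of the brightest probe of each gene in 3 normal livers (blue) and 3 liver tumors (red), with marker shapes for samples 1 to 3 and a line at the mean of the log values. Open markers show groups in which the probe was not well above background on all 3 arrays; *Ctgf* and *Tead4* lie apart between groups, and *Cyr61* overlaps.

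Sequences upstream of the genes are shown first, because Tead factors bind the letters CATTCC, which read GGAATG on the other strand. RefSeq promoter sequences (mouse build GRCm38.p6) were matched for 7 of the 10 genes, and the 250 bases before the transcription start were searched on both strands. *Tead1*, *Tead4* and *Ctgf* were not matched. The letters were found upstream of 6 of the 7 genes, namely *Yap1*, *Wwtr1*, *Tead3*, *Cyr61*, *Ankrd1* and *Amotl2*, and not upstream of *Tead2*. Of all 27025 genes with such a sequence, 14.4% held the letters in at least 1 window, and of all 32851 windows 12.6% did. The windows of the 3 matched target genes are printed in lower case with the Tead letters in capitals, 5′ to 3′ on the strand of the gene, each ending at the base before the start.
Cyr61, chr3:145649986-145650235, minus strand: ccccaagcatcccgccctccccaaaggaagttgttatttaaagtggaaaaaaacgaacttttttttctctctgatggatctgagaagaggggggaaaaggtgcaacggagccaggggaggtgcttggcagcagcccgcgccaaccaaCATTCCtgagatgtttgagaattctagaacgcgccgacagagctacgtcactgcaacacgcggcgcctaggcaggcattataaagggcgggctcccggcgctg
Ankrd1, chr19:36119845-36120094, minus strand: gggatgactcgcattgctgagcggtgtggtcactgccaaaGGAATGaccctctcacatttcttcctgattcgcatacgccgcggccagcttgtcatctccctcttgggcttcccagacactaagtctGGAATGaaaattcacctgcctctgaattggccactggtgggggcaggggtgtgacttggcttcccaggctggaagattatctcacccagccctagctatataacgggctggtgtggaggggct
Amotl2, chr9:102717554-102717803, plus strand: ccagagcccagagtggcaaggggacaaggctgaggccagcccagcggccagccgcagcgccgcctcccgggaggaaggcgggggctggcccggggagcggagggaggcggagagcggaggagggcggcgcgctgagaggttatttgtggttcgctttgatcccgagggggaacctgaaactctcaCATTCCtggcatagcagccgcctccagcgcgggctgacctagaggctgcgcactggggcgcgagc
The letters began 103 bases before the start in *Cyr61*, 210 and 123 bases before it in *Ankrd1* and 65 bases before it in *Amotl2*. The letters TGACTCA of AP-1, a factor that often binds near Tead sites, or their reverse complement, were in none of the windows of the 7 genes and in 4.46% of all windows. A match describes these letters and not a bound site, and the arrays carry no measure of binding. The 3 genes shown with these letters differed in the arrays: *Amotl2* was lower in tumors, *Cyr61* was not called and *Ankrd1* was near background.

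Both coactivator genes read higher in every tumor than in every normal liver, but only *Wwtr1* was called. *Yap1* encodes Yap and was read by a probe at chr9:7932025-7932084 of mm9. Its expression value was 19.0, 22.3 and 24.5 in normal livers 1 to 3 and 32.0, 26.6 and 27.8 in liver tumors 1 to 3. All tumors thus lay above all normal livers, by a margin smaller than the range within either group. The log2 fold change was 0.40 (SE 0.14), with a 95% confidence interval from 0.06 to 0.73 and a limma adjusted p of 0.0720, so *Yap1* was not called. It was called with normexp background correction (0.47, limma adjusted p = 0.0394), with quantile normalization (0.56, limma adjusted p = 0.0274) and with an intensity trend in the variance (limma adjusted p = 0.0409), 3 of 16 other limma settings.

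*Wwtr1*, which encodes Taz, read 0.754, 1.06 and 0.550 in the normal livers and 1.36, 1.33 and 1.25 in the tumors, at chr3:57259999-57260058 of mm9. The 3 tumors lay close together, with an SD of 0.0568, while the normal livers spread with an SD of 0.258. The log2 fold change was 0.79 (SE 0.24, limma adjusted p = 0.0446), a 1.72-fold difference. The call was lost when normal liver 1, normal liver 3 or any one of the tumors was left out, with log2 fold changes from 0.55 to 0.82 and limma adjusted p from 0.0797 to 0.106, and also when dim probes were tested too (limma adjusted p = 0.123). The direction was the same in 16 of 16 other limma settings, with log2 fold changes from 0.55 to 1.03.

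The 4 Tead genes, which encode the DNA-binding partners of Yap and Taz, differed among themselves. *Tead4* and *Tead2* were called higher in tumors, and *Tead1* and *Tead3* were not called. All 4 had mean expression values below 1 in both groups, the minimum that the methods of the study set for an expressed gene.

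With the scaling used here *Tead4* showed the largest difference of the 10 genes, although its probe was dim. Its expression value was 0.0407, 0.0320 and 0.0262 in the normal livers and 0.391, 0.177 and 0.294 in the tumors. In 0 of 3 normal livers and in 3 of 3 tumors the probe was well above background, so the fold change is a lower bound. Measured against the lowest signal that counted as above background on each array of a normal liver, *Tead4* was at least 2.40-fold higher in tumors (limma adjusted p = 0.00139). This adjusted p comes from the signals as measured, below background included, and the arrays of normal livers also had the higher local background, whose part in the difference was not tested. With normexp background correction, which adds a constant offset to every signal, the log2 fold change was 0.43, less than that bound (1.27 in log2). *Tead4* was then no longer called (limma adjusted p = 0.0764), and its change was smaller than that of *Ctgf* (0.86). Under the stricter filter, which needs all 6 arrays well above background, *Tead4* could not be tested. It was called in the remaining 14 limma settings, including each with 1 array left out.

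*Tead2* had 2 probes that did not give the same picture. The brighter probe read 0.365, 0.378 and 0.383 in the normal livers and 0.751, 0.706 and 0.436 in the tumors. The normal livers were nearly equal, and tumor 3 lay only slightly above them. The log2 fold change was 0.71 (SE 0.22, limma adjusted p = 0.0465). The second probe read 0.294, 0.368 and 0.124 in the normal livers and 0.259, 0.324 and 0.177 in the tumors, with a log2 fold change of 0.05 (SE 0.43, limma adjusted p = 0.943). On the second probe the groups overlapped. The mean of both probes was not called (0.38, limma adjusted p = 0.332), nor was the brighter probe with normexp background correction (0.32, limma adjusted p = 0.146). With 1 array left out, the brighter probe was called only without liver tumor 3, and without each of the other arrays its adjusted p lay between 0.100 and 0.129.

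*Tead1* was read by 3 probes, of which 1 could be tested. That probe gave 0.435, 0.395 and 0.294 in the normal livers and 0.745, 0.310 and 0.247 in the tumors. Tumor 1 was the highest of the 6 samples and tumor 3 the lowest, and the log2 fold change was 0.06 (SE 0.41, 95% confidence interval from -0.93 to 1.05, limma adjusted p = 0.927). The sign of this value rested on single samples, since it was -0.42 without tumor 1 and -0.11 without normal liver 3. The second probe read 0.0832, 0.0557 and 0.0282 in the normal livers and 0.200, 0.0645 and 0.0985 in the tumors, and only tumor 1 was well above background. The third probe, with 0.0221 to 0.0349 over all samples, was not above background on any array.

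*Tead3* read 0.341, 0.195 and 0.303 in the normal livers and 0.287, 0.234 and 0.206 in the tumors. The groups overlapped, and the log2 fold change was -0.18 (SE 0.24, 95% confidence interval from -0.76 to 0.40, limma adjusted p = 0.603). The interval leaves room for a fall or a rise of moderate size, so these arrays do not show that *Tead3* was alike in both tissues.

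Among the 4 target genes *Ctgf* was higher, *Amotl2* was lower, *Cyr61* was not called and *Ankrd1* could not be tested. *Ctgf* encodes a secreted matrix-associated protein of the CCN family and is a widely used readout of Yap activity. Its expression value was 1.64, 2.57 and 1.97 in the normal livers and 4.51, 3.77 and 3.75 in the tumors, at a probe of mean 2.06 ± 0.472 against 4.01 ± 0.432 (SD, n = 3). Every tumor lay above every normal liver by more than the range within either group. The log2 fold change was 0.98 (SE 0.19, limma adjusted p = 0.0106), a 1.97-fold difference. Across 16 other limma settings it ranged from 0.83 to 1.15, with limma adjusted p from 0.00432 to 0.0417.

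*Cyr61*, a second secreted protein of the CCN family and a target of the same factors, was not called. It read 0.776, 1.15 and 0.953 in the normal livers and 1.15, 0.842 and 0.947 in the tumors. The groups overlapped, and the log2 fold change was 0.04 (SE 0.19, limma adjusted p = 0.903) with a 95% confidence interval from -0.42 to 0.49, which does not include a 2-fold change. Without normal liver 1 the value was -0.11 and without tumor 1 it was -0.08. The difference between the changes of *Ctgf* and *Cyr61* was not itself tested.

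*Amotl2* encodes an angiomotin-like scaffold that binds Yap and keeps it out of the nucleus, and its gene is itself a target of Yap and Tead. It read 3.07, 3.74 and 3.76 in the normal livers and 2.52, 2.26 and 1.96 in the tumors. All tumors were below all normal livers, and the log2 fold change was -0.65 (SE 0.15, limma adjusted p = 0.0178), a level 0.637 times that of the normal livers. It is the only one of the 10 genes called lower. The call was lost without normal liver 2 (-0.60, limma adjusted p = 0.0655) or normal liver 3 (-0.60, limma adjusted p = 0.0564), when dim probes were tested too (limma adjusted p = 0.0719) and when the arrays were scaled by their spike-in controls (-0.49, limma adjusted p = 0.215). The direction was lower in 16 of 16 other limma settings.

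*Ankrd1*, which encodes a nuclear ankyrin repeat protein best known from heart and muscle and used as a Yap readout in many cell types, was close to background. It read 0.0331, 0.0263 and 0.0329 in the normal livers and 0.122, 0.0793 and 0.0217 in the tumors. Only tumor 1 was well above background, tumor 3 was the lowest sample of all, and no test was made. Markers of muscle, the tissue for which *Ankrd1* is best known, were also mostly dim, with 2 of 7 tested and summed expression values of 0.651 to 0.973 in normal livers and 0.820 to 1.38 in tumors. The cardiac actin gene *Actc1* was the 1 called, where 34.1% of all genes tested were called. It was at least 2.16-fold higher in tumors (limma adjusted p = 0.000444). *Actc1* entered the test only through the tumors, the group where it was high, so its direction was built into its being tested. With normexp background correction its log2 fold change was 0.56 (limma adjusted p = 0.0226), less than that bound. The part of muscle RNA in the *Ankrd1* values was not tested.

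The tumors also differed among themselves. Liver tumor 1 had the highest expression value of the 3 tumors for 10 of 10 genes, and for 9 of the 9 tested, against 37.3% of all genes tested. This count used the brightest probes, and the second *Tead2* probe was highest in tumor 2 (0.324, against 0.259 in tumor 1). The pattern was not confined to the 10 genes. Of the kinase core *Stk3*, *Sav1*, *Lats1*, *Lats2* and *Mob1a* also read highest in tumor 1, while *Stk4* and *Mob1b* did not. The median distance of tumor 1 from the mean of the other tumors was 0.37 on the log2 scale for the 10 genes and 0.01 for all genes. The count was 10 of 10 as well with normexp background correction and with quantile normalization, and 7 of 10 with scaling by the spike-in controls. Tumor 1 also stood apart over all tested probes, where its log2 values correlated with those of the normal livers at 0.914 to 0.916, against 0.943 to 0.950 for tumors 2 and 3, and its part in the pattern was not tested. This pattern was noticed after the values were seen, it rests on 1 sample, and no test of it was made. Without tumor 1, *Tead4*, *Ctgf* and *Amotl2* were still called and *Wwtr1* and *Tead2* were not.

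**Figure D2:**
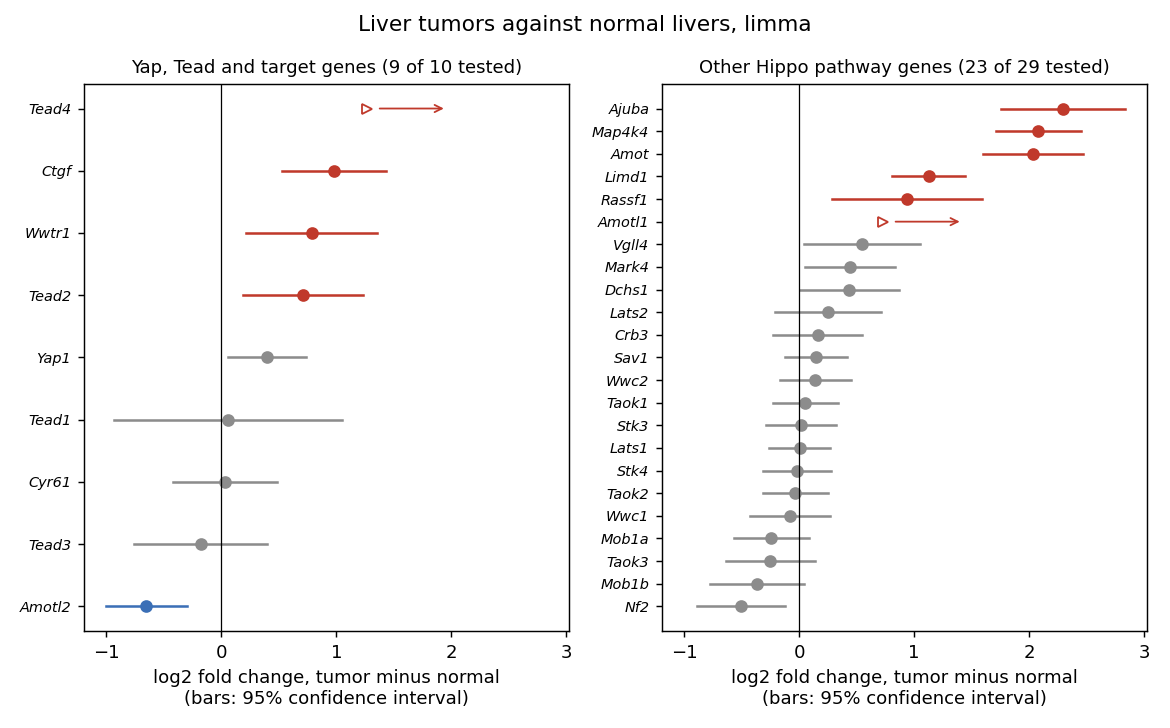
Log2 fold change of liver tumors over normal livers (x axis) with 95% confidence intervals for the 9 tested Yap, Tead and target genes (left) and 23 tested other Hippo pathway genes (right), in red where called higher, in blue where called lower and in gray where not called. Open triangles with arrows are lower bounds, for *Tead4* (1.27) and *Amotl1* (0.73); the kinase core lies between -0.37 and 0.25, while *Ajuba*, *Map4k4* and *Amot* lie above 2.

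Other Hippo pathway genes were examined next. They included genes that act before Yap and Taz and control whether the coactivators reach the nucleus. The Vgll genes, whose products compete with Yap for Tead factors, were counted with them. Of 29 other Hippo pathway genes 23 were tested, 6 were called higher and 0 lower by limma, while 34.1% of all genes were called and 21.0% were lower. With an unadjusted limma p below 0.05 there was 1 lower gene, as there was with the methods' t-test before adjustment, both paired by number as the methods state it and unpaired. The median log2 fold change of the 23 genes was 0.15. Among the 6 genes called higher, *Amotl1* entered the test only through the tumors, so its direction was built into its being tested. The count of lower genes depended on the setting, since 7 of 16 other limma settings called 1 or 2 genes lower. These were most often *Nf2*, in 5 settings with log2 fold changes from -0.45 to -0.64.

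Of the 7 genes of the kinase core 0 were called by limma, 0 had an unadjusted limma p below 0.05 and 0 passed the methods' t-test before adjustment, paired or unpaired. *Stk3* and *Stk4* encode the Mst kinases at the top of the core, and their log2 fold changes were 0.02 and -0.02 (SE 0.13 and 0.12). *Sav1*, the scaffold of these kinases, had 0.15 (SE 0.11). *Lats1* and *Lats2*, whose products phosphorylate Yap and Taz directly, had 0.00 and 0.25 (SE 0.11 and 0.19), and *Mob1a* and *Mob1b*, the cofactors of Lats, had -0.24 and -0.37 (SE 0.14 and 0.17). Limma adjusted p lay between 0.146 and 0.984 for these 7 genes. The 95% confidence intervals of *Stk3*, *Stk4* and *Lats1* lay between -0.31 and 0.32. A dimmer probe of *Mob1a* was called lower (-0.70, limma adjusted p = 0.0151), unlike the other 2 probes of that gene, and a dimmer probe of *Lats2* had a log2 fold change of -0.37 (limma adjusted p = 0.0921) where the brighter one had 0.25. The mean of the *Mob1a* probes was called lower (-0.39, limma adjusted p = 0.0309), and *Mob1b* was called lower without normal liver 1 (-0.54, limma adjusted p = 0.0381).

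Among 16 upstream regulators 13 were tested, 4 were called higher and 0 lower, beside 13.1% and 21.0% of all genes. *Map4k4*, a kinase that can phosphorylate Lats alongside the Mst kinases, read 0.800, 0.890 and 0.960 in the normal livers and 4.42, 3.63 and 3.20 in the tumors. Its log2 fold change was 2.08 (SE 0.15, limma adjusted p = 0.000454), and a second probe gave 2.33 (limma adjusted p = 0.000736). *Ajuba* and *Limd1* encode LIM domain proteins that bind and restrain Lats. *Ajuba* had 0.409 ± 0.00451 in normal livers and 2.06 ± 0.579 in tumors (SD, n = 3), a log2 fold change of 2.29 (SE 0.22, limma adjusted p = 0.00121). *Limd1* had 6.12 ± 0.485 and 13.4 ± 1.65 (SD, n = 3), a log2 fold change of 1.13 (SE 0.13, limma adjusted p = 0.00233). The tumors were apart from the normal livers for all 3 of these genes, as they were for 51.8% of all genes tested. *Rassf1*, whose product binds the Mst kinases, was also called (0.94, SE 0.27, limma adjusted p = 0.0396). All 4 were called as well with normexp background correction, quantile normalization and spike-in scaling. *Nf2*, which encodes the tumor suppressor Merlin, an activator of Lats at the membrane, had 1.41 ± 0.0866 in normal livers and 1.002 ± 0.188 in tumors (SD, n = 3). Its log2 fold change of -0.51 was not called (SE 0.16, limma adjusted p = 0.0519). *Frmd6*, *Fat4* and *Ptpn14* were not well above background on any array.

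The other angiomotin genes were called higher, opposite to *Amotl2*. *Amot* read 2.20, 1.99 and 1.50 in the normal livers and 8.89, 6.99 and 7.28 in the tumors, with a log2 fold change of 2.03 (SE 0.18, limma adjusted p = 0.000831). *Amotl1* was well above background in 0 of 3 normal livers and 3 of 3 tumors, at least 1.66-fold higher (limma adjusted p = 0.0389). It entered the test only through the tumors, the group where it was high, so its direction was built into its being tested. *Amot* was called under the other 3 scalings too, while *Amotl1* was not called with normexp background correction (0.02, limma adjusted p = 0.890) or quantile normalization (limma adjusted p = 0.0545). The normexp value of *Amotl1* was less than its bound, which is 0.73 in log2. Angiomotins bind Yap in the cytoplasm, and *Amotl2* alone of the 3 was lower in tumors. Of the Vgll genes, whose products compete with Yap for Tead factors, *Vgll1*, *Vgll2* and *Vgll3* were not well above background on any array and *Vgll4* was not called (0.55, SE 0.21, limma adjusted p = 0.0889).

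**Figure D3:**
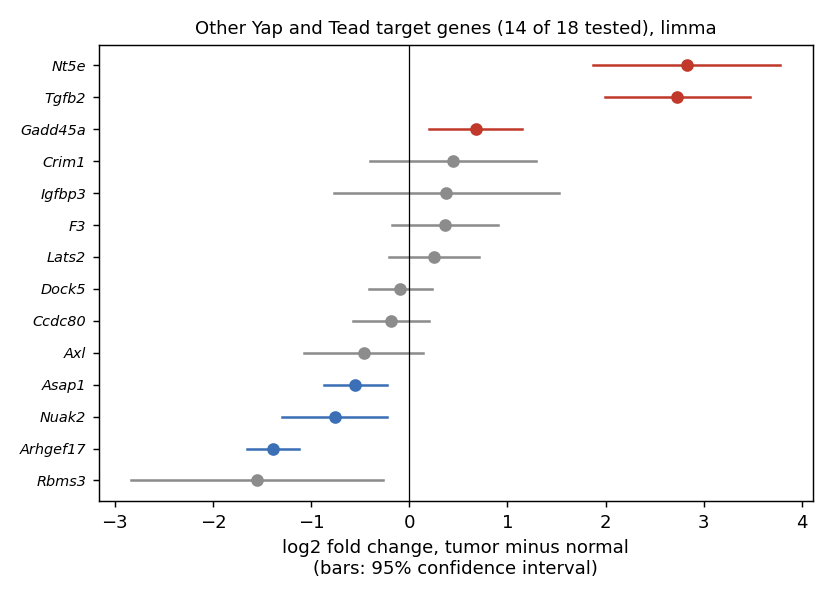
Log2 fold change of liver tumors over normal livers (x axis) with 95% confidence intervals for the 14 tested of 18 other genes known as Yap and Tead targets, in red where called higher, in blue where called lower and in gray where not called. The list splits, with 3 called higher, led by *Nt5e* at 2.83, and 3 called lower, led by *Arhgef17* at -1.39.

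A wider list of 18 genes reported as Yap and Tead targets in other cells held calls in both directions. Of 14 tested, 3 were called higher and 3 lower, beside 13.1% and 21.0% of all genes, 7 had a positive and 7 a negative log2 fold change, and the median was 0.08. The higher ones were *Nt5e*, an enzyme that makes adenosine at the cell surface (2.83, SE 0.40, limma adjusted p = 0.00400), *Tgfb2*, a TGF-beta ligand (2.73, SE 0.31, limma adjusted p = 0.00200), and *Gadd45a*, a gene of the stress response (0.68, SE 0.20, limma adjusted p = 0.0400). *Nt5e* rose from 1.22 ± 0.711 in the normal livers to 7.83 ± 1.21 in the tumors (SD, n = 3). The lower ones were *Arhgef17* (-1.39, SE 0.11, limma adjusted p = 0.000549), *Nuak2*, a kinase of the AMPK family (-0.76, SE 0.22, limma adjusted p = 0.0423), and *Asap1*, an Arf GTPase-activating protein (-0.55, SE 0.14, limma adjusted p = 0.0241). *Asap1* is uncertain, because its other 2 probes had log2 fold changes of 0.61 and 0.40, in the opposite direction. *Nuak2* was called under none of the other 3 scalings (limma adjusted p from 0.0510 to 0.131), *Gadd45a* was lost with normexp background correction (limma adjusted p = 0.0742) and *Asap1* with spike-in scaling (limma adjusted p = 0.282), without a change of direction. *Tgfb2* was still called with normexp background correction but at a smaller log2 fold change of 1.38. *Myof*, *Foxf2* and *Ptpn14* were not well above background on any array. *Lats2* and *Ptpn14* stand in both this list and the pathway lists.

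Markers of other liver cells that also use these target genes moved in both directions. *Ctgf*, *Cyr61* and *Wwtr1* are expressed by stellate cells, fibroblasts and endothelium as well as by hepatocytes. Of 10 stellate cell and fibroblast markers 7 were called, 2 higher and 5 lower, where 13.1% of all genes were called higher and 21.0% lower. The higher ones were *Col1a1* (1.58) and *Reln* (0.72, lost with normexp background correction), and the largest falls were *Lrat* (-1.83), *Dcn* (-1.64), *Lum* (-1.41) and *Des* (-0.85) on the log2 scale. The summed expression value of the list was 89.0 to 106 in the normal livers and 30.2 to 50.5 in the tumors, a direction set by *Dcn* alone, since without it the sum was 9.61 to 13.9 and 12.4 to 17.6. Of 8 endothelial markers 3 were called, a share near the 34.1% of all genes tested. *Egfl7* was higher (0.54) and *Stab2* (-0.78) and *Clec4g* (-0.49) were lower, and the list had sums of 138 to 152 and 127 to 141. *Clec4g* was called under none of the other 3 scalings and *Stab2* not with spike-in scaling, and 2 dimmer probes of *Stab2* had log2 fold changes of 0.02 and 0.09. *Kdr*, *Cdh5* and *Pecam1*, which define endothelium, were not called. Also not called were *Lyve1* (1.50, limma adjusted p = 0.0913) and *Vwf* (-0.54, limma adjusted p = 0.241), with larger changes in opposite directions. The rise of *Ctgf* thus stood beside stellate cell and fibroblast markers that were called in both directions, and the part of these cells in it was not tested.

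Bile duct cells, in which Yap is known to be active, gave no call. Among all genes tested 34.1% were called, 13.1% higher and 21.0% lower. Of 7 cholangiocyte markers 5 were tested, 0 were called by limma, 0 had an unadjusted limma p below 0.05 and 0 passed the methods' t-test before adjustment, paired or unpaired. All 5 had negative log2 fold changes, from -0.19 to -0.69, with sums of 2.59 to 3.35 in normal livers and 2.22 to 2.48 in tumors. Of 6 macrophage markers 4 were called lower, *Clec4f* (-1.84), *Vsig4* (-1.27), *Csf1r* (-0.81) and *Cd68* (-0.64), with sums of 72.7 to 116 and 36.9 to 58.3. *Cd68* lost its call with quantile normalization and spike-in scaling, and *Csf1r* with spike-in scaling. Of 7 lymphocyte markers 4 were tested and *Cd4* was called, but its probes differed in direction, with 1.59 for the brighter and -0.48 for the dimmer one. The part of these cells in the values of the 10 genes was not tested.

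**Figure D4:**
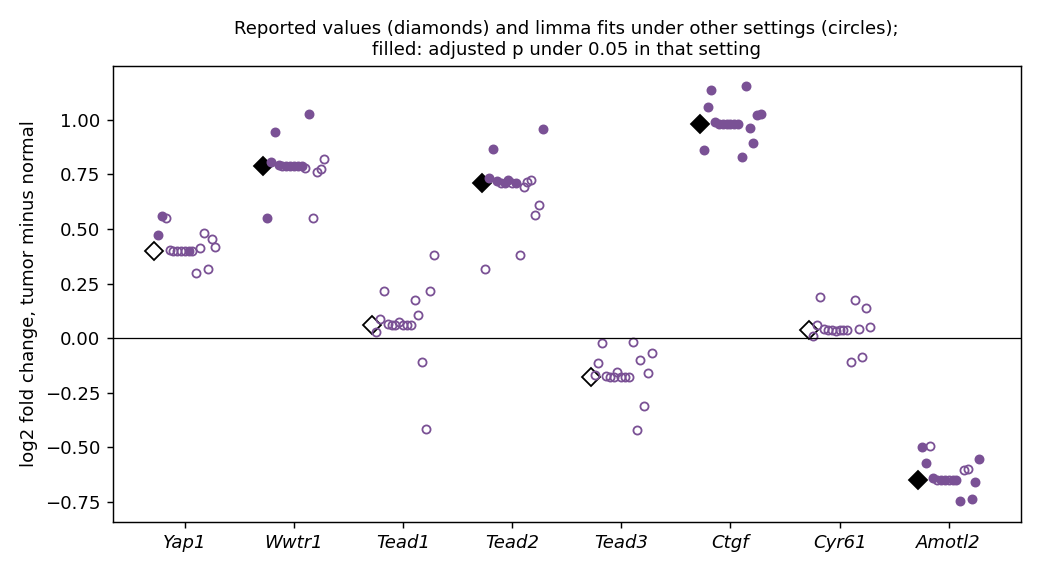
Log2 fold change of liver tumors over normal livers (y axis) for 8 genes as reported (black diamonds) and under other limma settings (circles, 16 a gene), filled where the adjusted p was below 0.05. *Ctgf* is filled throughout and *Cyr61*, *Tead1* and *Tead3* nowhere, while *Tead4*, given as a lower bound, is left out.

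The way the arrays were scaled shifted all genes together. The median log2 fold change of all genes tested was -0.13 as reported, -0.04 with quantile normalization and 0.03 when the arrays were scaled by 7 spike-in control probes. The share of calls that were higher in tumors was 37.8%, 46.8% and 59.7% in that order. Relative to these medians *Ctgf*, *Wwtr1* and *Amotl2* kept their directions, and *Cyr61*, *Tead1* and *Tead3* were called under none of these scalings. The methods of the study kept genes with a mean expression value above 1 in either group and asked for a 2-fold difference of the means. Of the 10 genes 4 passed that minimum, *Yap1*, *Wwtr1*, *Ctgf* and *Amotl2*, and 0 of these reached a 2-fold difference of the group means.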

How the data were processed

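Total RNA of 3 normal livers and 3 liver tumors was labeled with Cy3 and hybridized to Agilent SurePrint G3 Mouse GE arrays by the authors. The deposited intensity files hold a processed signal per spot, already background-subtracted and spatially detrended by Feature Extraction (version 10.7.3.1 per the file headers and 12.0.3.1 per the submitters' processing notes). The deposited table of ratios, signal over the 75th percentile of each array as made by the authors, was used as an alternative. Probe positions are those of mm9 in the file headers' annotation.

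Here log2 processed signal minus log2 of the 75th percentile over all spots was used. Control and outlier spots were left out, and spots of 1 probe were averaged. A probe was tested when well above background on all 3 arrays of a group, which 24901 of 55681 probes were. limma 3.58.1 in R 4.3.3 was fitted over all tested probes with Benjamini-Hochberg adjustment at 0.05, and the steps were tested on simulated data. Genes were named through the accession for 27235 probes, through the symbol or a synonym for 3581 and 565, and by the array design for 24300.

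The 10 genes and all lists were chosen with earlier results of these data known. Named were all 10 genes, the whole kinase core and, of each other list, up to 4 called genes in each direction. *Nf2*, *Vgll4*, genes not above background and markers not called were named after their values were seen. Groups came from the sample labels. The labels do not say whether samples of one number came from one mouse, and the methods name a paired t-test. The samples were fitted unpaired. Deviations of same-numbered samples from their group means correlated at 0.07, 0.13 and 0.05, and those of unlike numbers at -0.139 to 0.055. These values do not settle whether the samples are pairs. Arrays carry no counts, so the number of arrays limits the precision. Alternatives were another background correction, other scalings, other filters, the mean of the probes, a trend, a block, the methods' t-test and each array left out. Protein sequences were not used here.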

Additional observations from a re-analysis of the deposited data

Results flagged for a closer look

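A signal outside the tested probes appeared in liver tumor 1 for both items here. The second *Tead1* probe, A_55_P2011390, read 0.200 in liver tumor 1, where it was well above background, against at most 0.0832 in the normal livers. The *Ankrd1* probe read 0.122 in liver tumor 1, also well above background, against at most 0.0331 in the normal livers. Both probes were left out of the fit because the other tumors were not well above background, and neither value was tested.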

How the results depend on the processing

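The counts of probes, of the 10 genes, of other Hippo pathway genes and of other target genes were recomputed under the alternatives, and the other lists only under 3 scalings. Probes called were 8239 as reported, 5063 with spike-in scaling, 4674 with no filter on dim probes, 5261 with the methods' t-test unpaired and adjusted, 3478 with a 2-fold minimum and 4954 to 7171 with 1 array left out. Of the 10 genes 5 were called, against 2 with no filter, 2 with the adjusted unpaired t-test, 1 with a 2-fold minimum and 2 to 4 with 1 array left out. Of the other Hippo pathway genes 6 were called, and 4 to 7 with 1 array left out. Of the other target genes 6 were called, against 3 with no filter, 2 with the adjusted unpaired t-test, 3 with a 2-fold minimum and 3 to 6 with 1 array left out. The sign turned for *Tead1* without normal liver 3 (-0.11) and without tumor 1 (-0.42), and for *Cyr61* without normal liver 1 (-0.11) and without tumor 1 (-0.08). With 1 array left out *Tead1* ranged from -0.42 to 0.38 and *Cyr61* from -0.11 to 0.17. Testing dim probes too adds hypotheses to the adjustment, and leaving out an array reduces the samples. The cause of the other shifts was not tested.

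Whether samples of one number are pairs is unknown, and the correlations of their deviations from the group means were low, at 0.07, 0.13 and 0.05. Those of samples of unlike numbers ranged from -0.139 to 0.055, so pairing is not excluded. With the replicate number as a block, 3 of the 10 genes were called, with *Tead2* (limma adjusted p = 0.0655) and *Amotl2* (limma adjusted p = 0.0503) lost, and 7021 probes, 7 other Hippo pathway genes and 5 other target genes. The methods' t-test paired by number called 7419 probes, 0 of the 10 genes, 7 other Hippo pathway genes and 3 other target genes before adjustment, and after it 0 probes, 0 of the 10 genes, 0 other Hippo pathway genes and 0 other target genes. The dimness of *Tead4*, *Ankrd1* and 2 *Tead1* probes limits what these arrays show of them.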

Other observations

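Other CCN family genes, relatives of *Ctgf* and *Cyr61* that encode secreted matrix proteins, were mostly dim. Of 4 such genes 1 was tested, *Wisp1*, which read 0.441, 0.328 and 0.279 in the normal livers and 0.0513, 0.207 and 0.169 in the tumors. All tumors were below all normal livers, but *Wisp1* was not called (log2 fold change -1.50, SE 0.52, limma adjusted p = 0.0694). *Nov* and *Wisp2* were not well above background on any array.

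Immediate early genes, which respond within minutes to growth factor signals, were higher in the tumors for most of the list. Of 12 tested 9 were called higher by limma and 0 lower, where 13.1% of all genes were called higher. There were 0 lower also at an unadjusted limma p below 0.05 and by the methods' t-test paired or unpaired. Of the genes called, *Fos*, *Junb*, *Egr2* and *Ier3* entered the test only through the tumors, the group where they were high. Their direction was thus built into their being tested. The median log2 fold change of the 12 genes was 1.88, or 1.64 with the genes that were dim in normal livers at their lower bound. *Egr1* read 0.555, 1.17 and 2.10 in the normal livers and 36.4, 40.5 and 14.1 in the tumors (log2 fold change 4.63, SE 0.58, limma adjusted p = 0.00289). *Btg2* rose by 4.17 (SE 0.25, limma adjusted p = 0.000216). *Fos* was at least 4.21-fold higher (limma adjusted p = 0.00417) and *Ier3* at least 4.49-fold higher (limma adjusted p = 0.00594). With normexp background correction both were called at log2 fold changes of 0.87 and 0.89, less than these bounds, *Egr2* lost its call (limma adjusted p = 0.496), and the list still had 9 calls. *Cyr61* and *Ctgf*, which also respond quickly to serum, had log2 fold changes of 0.04 and 0.98 in the same samples.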
